A study of Mus musculus with 28 samples.

Results

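The heat shock and chaperonin genes are the chaperones that carry protein folding in the cytosol, the mitochondria and the endoplasmic reticulum. They were taken here by name. The rule took every probe whose gene name in the scanner output begins with Hsp, Hspa to Hsph or Hsp90 and a number, Dnaja, Dnajb or Dnajc and a number, or Cct2 to Cct8, without Hspg2 and Hspbap1. It found 135 of 41174 probes and 70 of 27962 named genes, and no measured value entered it. A gene was kept when a probe stood well above background on at least 3 of the 28 arrays, which 67 of the 70 did, among 19612 genes kept in all. Dnajb7, Hspb3 and Hspb8 did not. The kept genes were all 8 Cct genes, the mitochondrial pair Hspd1 and Hspe1, 12 of 12 Hsp70 and Hsp110 genes, 3 of 3 Hsp90 genes, 36 of 37 Dnaj genes (4 Dnaja, 11 Dnajb and 21 Dnajc), 5 of 7 small heat shock genes, and Hspc171. The rule took Hspc171 by its name, but it is now Tmem208, not a heat shock gene. Of the 67, 53 were well above background on every array and 14 on fewer. The files name Hsph1 as Hsp110, Hspa9 as Hspa9a and Dnajb2 as Dnajb10, and the current symbols are used here.

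Hsp70 proteins bind short stretches of unfolded chains and release them in a cycle driven by ATP. J-domain proteins, the products of the Dnaj genes, bring them clients and speed that cycle, and Hsp110 proteins exchange the nucleotide. Some chains pass on to Hsp90, which matures kinases and receptors, or into a chaperonin, a closed chamber in which a chain folds. The cytosol has the CCT ring, which folds actin and tubulin, and the mitochondria have Hsp60 with its lid Hsp10. Inducible members are switched on by heat shock factors, which bind repeats of nGAAn, and members of the endoplasmic reticulum by the unfolded protein response. T cells that are triggered through their receptor leave a quiet state, grow and divide, which raises the load on protein folding.

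The samples were T cells of BALB/c mice, young (4 months) or old (20 months). Sorted CD4 or CD8 cells were left unstimulated (0 h) or were cultured for 4, 12, 24 or 72 h on anti-CD3 and anti-CD28 coated plates. RNA of 4 independent sorts was pooled and labelled with Cy3 on single-colour Agilent mouse arrays. Each of the 4 unstimulated groups (young CD4, old CD4, young CD8, old CD8) has 3 arrays, described as replicates of pooled RNA, and each of the 16 stimulated groups has 1 array. A p-value therefore measures the spread between these arrays, which may be technical. The gate is labelled in 2 ways. Titles and growth protocol give CD62L low, CD44 high cells, and the descriptions and the design text give CD62L high, CD44 low naive cells, so no state before stimulation is named here. Every group thus shares the strain, the sort and the pooling, and age, cell type and time of stimulation are what differ.

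Levels are log2 signals minus the 75th percentile of the array, so a level of 0 lies at that percentile and a difference of 1 is a 2-fold change. Levels of different genes are not compared, since they come from different probes. Replicates 1 and 2 of old CD4 cells at 0 h differed by an SD of 0.098 over 14276 probes, less than the 0.11 that repeat spots within an array give. They were averaged and counted as 1 sample, which leaves 5 CD4 and 6 CD8 samples at 0 h and 27 in all. The other pairs of a group on one slide were also close, but were counted as separate samples. Their SD was 0.152 in young CD4 (replicates 1 and 2), 0.231 in old CD8 (1 and 2) and 0.333 in young CD8 cells (2 and 3). Arrays of these groups on different slides differed by 0.529 to 0.625. The spread at 0 h, and p-values built on it, may therefore be too small. The 6 CD4 arrays at 12 to 72 h were dimmer and noisier. Their 75th percentile was 120.6 to 275 against 247 to 874.5 on the others, their median CV of repeat spots was 17.82 to 23.63% against 6.23 to 12.41%, and they hold 35 of the 39 member values lost to outlier spots. All 8 stimulated CD4 arrays and the replicate 3 arrays of CD4 cells at 0 h were read on another scanner than the rest. Each slide holds 1 cell type and, among stimulated arrays, 1 time, so slide and time cannot be told apart there. In the deposited value table, 6 of 28 columns, those of CD8 cells at 4, 12 and 24 h, follow the scanner output of another time (4 h follows 12 h, 12 h follows 24 h and 24 h follows 4 h). The scanner output's own labels are followed here, and with the table's times the CD8 values given here for 12, 24 and 4 h would be those of 4, 12 and 24 h. A list of 10 early activation genes had a median change of 4.38 in CD4 and 3.79 in CD8 cells at 4 h, with 9 of 10 genes higher in each. Markers of other cells moved with time as well. The summed level of 9 myeloid genes ran from 1.74 to 7.88 in CD4 cells at 0 h and from 0.27 to 7.15 after stimulation, and from 3.24 to 7.56 and from -1.33 to 6.2 in CD8 cells. The sum of 7 B cell genes in CD8 cells ran from 2.89 to 4.23 at 0 h and from 0.45 to 1.23 after stimulation. At 0 h 8 of the 9 myeloid genes in CD4 and 7 in CD8 cells were well above background on every array, and 3 and 1 after stimulation. The part of these cells in the changes below was not tested, and in pooled cells fewer cells of a type and less RNA per cell cannot be told apart.

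More of these genes rose than fell at each time in both cell types. In CD4 cells 29 of 67 were higher and 7 lower at 4 h than at 0 h (limma, adjusted p under 0.05 over all genes), 32 and 3 of 65 at 12 h, 26 and 4 of 62 at 24 h, and 21 and 9 of 62 at 72 h. The background over all genes was 14.6% higher and 15.4% lower at 4 h, 22.5% and 15.8% at 12 h, 24% and 19.3% at 24 h, and 20.7% and 16.1% at 72 h. In CD8 cells 24 of 67 were higher and 6 lower at 4 h, 26 and 4 at 12 h, 22 and 5 at 24 h, and 16 and 7 at 72 h, against 13.9% and 12.6%, 15.4% and 13.7%, 15.6% and 16.6%, and 13.2% and 13.9% of all genes. The median change of the members was 0.63, 0.91, 0.51 and 0.41 in CD4 cells and 0.39, 0.47, 0.42 and 0.19 in CD8 cells, and that of all genes -0.12, 0.21, 0.02 and 0.17 in CD4 cells and 0.08, 0, -0.1 and 0.01 in CD8 cells. The 4 times of a cell type share their 0 h samples. In CD4 cells 27 genes had their highest mean at 12 h, 8 each at 4 and 24 h, 11 at 72 h and 5 at 0 h. In CD8 cells 22 peaked at 12 h, 15 at 4 h, 8 each at 24 and 72 h and 14 at 0 h.

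These counts depend on few arrays, since each time has 1 array per age. With the slide as a random block they were 22 (20 higher, 2 lower), 24, 23 and 19 in CD4 cells and 13 (9 higher, 4 lower), 24, 17 and 12 in CD8 cells. Of all genes 17%, 24.8%, 29.2% and 22.6% were then called in CD4 cells at 4, 12, 24 and 72 h. The CD8 shares were 13.2%, 19.6%, 18.6% and 13.6%. Without the old CD4 array at 4 h the count there fell to 20, and without the young CD8 array at 4 h it fell to 8. In CD8 cells, leaving out either array left 18 at 12 h and 15 at 24 h, and 14 (without the old) or 13 (without the young) at 72 h. With the CD8 times as in the deposited value table, the CD8 counts were 30, 27, 30 and 23, those given above for 12, 24, 4 and 72 h. Against only the 0 h arrays of the scanner that read them, the CD4 counts were 29, 31, 31 and 26. Quantile normalization moved the share of higher calls at 24 h in CD8 cells to 71.4% from 81.5%, and at 72 h it was 53.6% (57.1% with normexp background correction) against 69.6%.

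**Figure D1:**
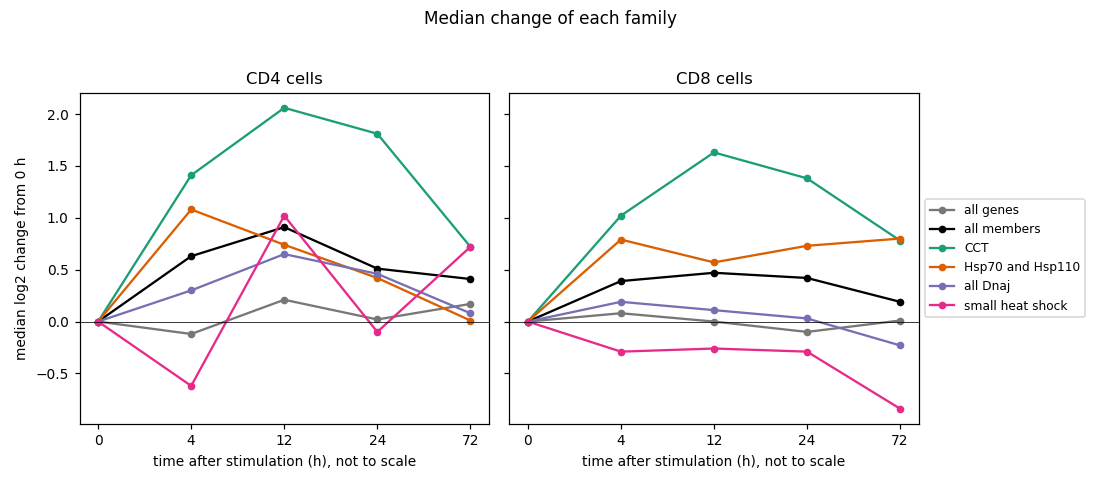
Median log2 change from 0 h over the genes of a family against time of stimulation (axis not to scale) in CD4 and CD8 cells, with the median over all genes. The Cct median peaks at 12 h at 2.06 in CD4 and 1.63 in CD8 cells, while the median of all genes lies between -0.12 and 0.21.

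The genes of the CCT ring rose together. All 8 subunit genes measured here rose in CD4 cells at 4 h, 6 of 8 at 12 h, 6 of 7 at 24 h and 3 of 7 at 72 h. In CD8 cells 7, 8, 7 and 4 of 8 rose, and none fell in either cell type. The median change of the subunits was 1.41, 2.06, 1.81 and 0.72 in CD4 cells and 1.02, 1.63, 1.38 and 0.78 in CD8 cells. The 6 subunits with a value at every CD4 time all had their highest CD4 mean at 12 h, as did 6 of 8 in CD8 cells. With the slide as a random block 7, 6, 6 and 2 subunits were called in CD4 cells and 3, 7, 6 and 2 in CD8 cells. Tcp1, which encodes the remaining subunit of the ring and falls outside the name rule, rose by 1.73, 1.88, 1.57 and 0.83 in CD4 cells and by 1.32, 1.64, 1.61 and 1.11 in CD8 cells.

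Cct7 had 0 h samples close to each other. Its level was 5.32, 5.16 and 4.74 in young and 5.01 and 4.9 in old CD4 cells at 0 h. It was 6.32, 7.45, 7.33 and 6.79 at 4, 12, 24 and 72 h in young and 6.47, 7.88, 7.51 and 6.4 in old CD4 cells. Its CD8 level was 5.36, 5.39 and 5.29 (young) and 5.79, 5.66 and 5.08 (old) at 0 h, then 6.91, 7.26, 6.76 and 6.4 in young and 6.32, 7.12, 6.77 and 6.38 in old cells. Every stimulated sample thus lay above every 0 h sample of its cell type, and both ages were highest at 12 h. The difference from 0 h at 12 h was 2.64 (SE 0.24, 6.22-fold, limma adjusted p = 3.4e-07, n = 2 against 5) in CD4 and 1.77 (SE 0.23, adjusted p = 2.7e-05, n = 2 against 6) in CD8 cells. Cct7 was called at all 8 combinations of cell type and time, as was Cct4. Without the young array the CD8 call of Cct7 at 4 h was lost (0.86), as was that at 72 h without either array (0.95 and 0.97).

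Cct6a and its paralogue Cct6b, known mainly from testis, both rose from 4 to 24 h. Cct6a stood at 0.44, 0.45 and 0.95 in young and 1.15 and 2.09 in old CD4 cells at 0 h, and at 3.24, 4.18, 3.31 and 1.57 in young and 3.79, 4.19, 3.81 and 1.72 in old CD4 cells from 4 to 72 h. At 72 h both values lay within the range of the 5 CD4 samples at 0 h, and the young value lay above the 3 young ones. It rose by 3.11 at 12 h (8.62-fold, adjusted p = 1.7e-06) in CD4 cells. In CD8 cells it rose by 1.1, 1.73 and 1.42 at 4, 12 and 24 h, with 0.53 at 72 h (adjusted p = 0.25). Cct6b rose by 1.75, 2.14 and 1.78 in CD4 cells, with 0.52 at 72 h (adjusted p = 0.23), and by 1.98, 1.95, 1.69 and 1.04 in CD8 cells. The CD8 calls of Cct6a at 4 h without the young array (0.63) and at 12 h without the old array (1.24) were lost, as was that of Cct6b at 72 h without the old array (0.6).

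The other subunits rose by less or with more spread. Cct2 rose by 1.28, 1.58, 1.15 and 0.72 in CD4 cells and by 0.68, 1.05 and 0.86 in CD8 cells, with 0.49 at 72 h (limma adjusted p = 0.082). Cct4 rose by 1.39, 1.98, 1.81 and 1.1 in CD4 and by 0.94, 1.54, 1.51 and 1.1 in CD8 cells. Cct3 rose by up to 2.61 in CD4 and 2.75 in CD8 cells at 12 h on its brightest probe, whose 0 h levels run from -0.85 to 2.05 in CD8 cells. A second, dimmer probe changed by 1.24, -0.8, -1.87 and -2.73 in CD4 cells and by 0.41, -0.87, -2.17 and -2.37 in CD8 cells. With the mean of the probes Cct3 was -0.09 at 24 h and -0.61 at 72 h in CD8 cells. Cct5 rose in CD4 cells at 4 h by 1.4 (adjusted p = 0.0019), and stood at -0.14 at 12 h and 0.2 at 24 h with 1 usable array at each. Cct8 rose by 1.43 in CD4 cells at 4 h and by 1.29 in CD8 cells at 12 h. The other values, from 0.28 to 0.86, did not pass the test or could not be tested. Several of these calls were lost when 1 array was left out. Without the old array, the CD4 values at 4 h were 1.23 for Cct3, 1.25 for Cct5 and 1.28 for Cct8. Without the young array, Cct2 was 0.51 in CD4 cells at 72 h and 0.85 in CD8 cells at 24 h, and at 4 h in CD8 cells Cct2 was 0.42 and Cct4 0.8. Leaving out either array lost the CD8 calls of Cct3 and Cct5 at 4 h, Cct3 at 72 h, Cct5 at 24 h and Cct8 at 12 h, and leaving out the young array those of Cct3 at 24 h (2.17) and Cct5 at 12 h (0.24). The call of Cct5 at 12 h was also lost without old replicate 3 or any young replicate at 0 h (0.77 to 0.79), and that at 4 h without young replicate 2 or 3 (0.87 and 0.85).

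Promoter letters are shown for some of the genes whose windows hold a heat shock type repeat and for those with an endoplasmic reticulum stress element, to set the sequence beside the course of the gene. RefSeq promoters (GRCm38.p6, 250 bases before to 50 after each start) were found for 57 of the 70 genes, 76 windows in all. Searched on both strands, GAANNTTC was in 15 of the 76 windows (19.7%; 7.86% of all 32851 windows), and TTCNNGAA in 10 (13.2%; 8.52%). A run of 3 units, GAANNTTC carried on by NNGAA or TTCNNGAA by NNTTC and so holding both shorter forms, was in 6 (7.89%; 0.603%), which belong to Hspd1, Hspe1, Hsph1 and Dnajb6. The overlapping windows of Hsph1 share 1 run, as do those of Dnajb6 and those of Hspd1 and Hspe1. The same letters are thus counted more than once in this share. A match describes letters only. Hspd1 and Hspe1 lie head to head on chromosome 1 with starts 216 bases apart and share 1 run of overlapping units. It is shown on the strand of Hspe1 (chr1:55088039-55088096), and begins at -89 from the start of that gene and, on its own strand, at -144 from that of Hspd1. Among the Cct genes, Cct2 (chr10:117063390-117063437, minus strand) and Cct5 (chr15:31601853-31601900, minus strand) hold a pair of units that begins at -42 and -34 from the start. Cct6a holds TTCNNGAA as well, at 25 bases after its start, and is not shown. The matched letters are in capitals, with 20 bases on either side.
Hspe1 and Hspd1: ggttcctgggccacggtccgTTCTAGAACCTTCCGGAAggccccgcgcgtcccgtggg
Cct2: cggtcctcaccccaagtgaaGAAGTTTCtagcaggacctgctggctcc
Cct5: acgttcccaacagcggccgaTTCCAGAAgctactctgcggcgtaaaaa

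The mitochondrial chaperonin genes rose in both cell types. Hspd1 (Hsp60), which forms the chamber, stood at 4.87, 5.04 and 4.51 in young and 4.96 and 5.03 in old CD4 cells at 0 h and at 7.17, 7.73 and 7.39 in young and 7.44, 8.14 and 7.51 in old cells at 4, 12 and 24 h. At 72 h only the old array gave a value, 5.66. Its CD8 level stood between 5.39 and 5.73 at 0 h, at 7.97, 8.1, 7.61 and 6.78 in young and at 7.02, 7.71, 7.75 and 7.19 in old cells. No stimulated sample overlapped the 0 h samples of its cell type. The rise was 2.4 at 4 h (SE 0.24, 5.26-fold, adjusted p = 2.1e-06) and 3.02 at 12 h (8.13-fold, adjusted p = 2.1e-07) in CD4 cells, and 1.94 and 2.36 (5.12-fold, adjusted p = 3e-06) in CD8 cells. At 72 h it was 0.63 in CD4 cells (SE 0.33, adjusted p = 0.15, n = 1 against 5) and 1.43 in CD8 cells (adjusted p = 0.00025).

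Hspe1 (Hsp10), the lid of the chamber, shares the promoter region printed above. Its CD4 level was 4.53, 4.41 and 4.32 in young and 4.5 and 5.2 in old cells at 0 h, and 6.1 and 6.9 at 4 h. Its later CD4 spots were outliers and gave no value. It rose by 1.85 there (SE 0.29, adjusted p = 0.00019) and in CD8 cells by 0.9, 1.23 and 1.24 at 4, 12 and 24 h, with 0.77 at 72 h (adjusted p = 0.054). Each of these CD8 calls was lost without 1 array, the young at 4 and 12 h (0.48 and 0.91) and the old at 24 h (1). Among 6 members listed as mitochondrial (Hspd1, Hspe1, Hspa9, Dnaja3, Dnajc15 and Dnajc19), 5 of 6 rose in CD4 cells at 4 h, 4 of 4 tested at 12 and at 24 h, and 2 of 5 at 72 h. In CD8 cells 3, 5, 4 and 3 of 6 rose, and none fell in either cell type. The list counts Dnajc19, whose probes disagree. It leaves out Dnajc11, also mitochondrial, whose brightest probe changed by 0.48 at 12 h and -0.11 at 72 h in CD4 cells.

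Hspa9 (mortalin), the Hsp70 of the mitochondrial matrix, was still up at 72 h. Its level was 4.21, 4.39 and 3.86 in young and 4.22 and 4.72 in old CD4 cells at 0 h, and then 6.55, 6.52, 6.36 and 6.35 in young and 6.54, 6.95, 6.44 and 5.74 in old cells. In CD8 cells the 0 h values ran from 4.21 to 4.73 and the stimulated ones from 5.87 to 6.9. Groups did not overlap in either cell type. It rose by 2.25, 2.45, 2.11 and 1.75 in CD4 and by 2.13, 1.59, 1.59 and 1.54 in CD8 cells (adjusted p at most 0.00018), and remained called at all 8 combinations with the slide as a random block. Dnajc15 and Dnajc19, J-domain proteins of the inner mitochondrial membrane, had their largest changes after 4 h. Dnajc15 rose by 0.97, 2.48, 1.96 and 1.86 in CD4 cells and by 0.84, 0.84 and 1.17 in CD8 cells from 12 h (0.22 at 4 h, adjusted p = 0.65), the CD8 call at 72 h being lost without the old array (1.08). With the slide as a random block none of these CD8 rises passed (limma adjusted p = 0.14, 0.2 and 0.074). Nor did the CD4 rise of Dnajc15 at 4 h (adjusted p = 0.13). Dnajc19 rose by 1.96 and 1.56 in CD4 cells at 12 and 24 h and by 0.9 in CD8 cells at 12 h. Its CD8 rise did not pass under that block (limma adjusted p = 0.1). Its probes disagree: 2 dimmer ones changed by -0.67 and -1.26 at 12 h and by -1.45 and -1.55 at 24 h in CD4 cells, and by -0.5 and -0.96 at 12 h in CD8 cells.

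**Figure D2:**
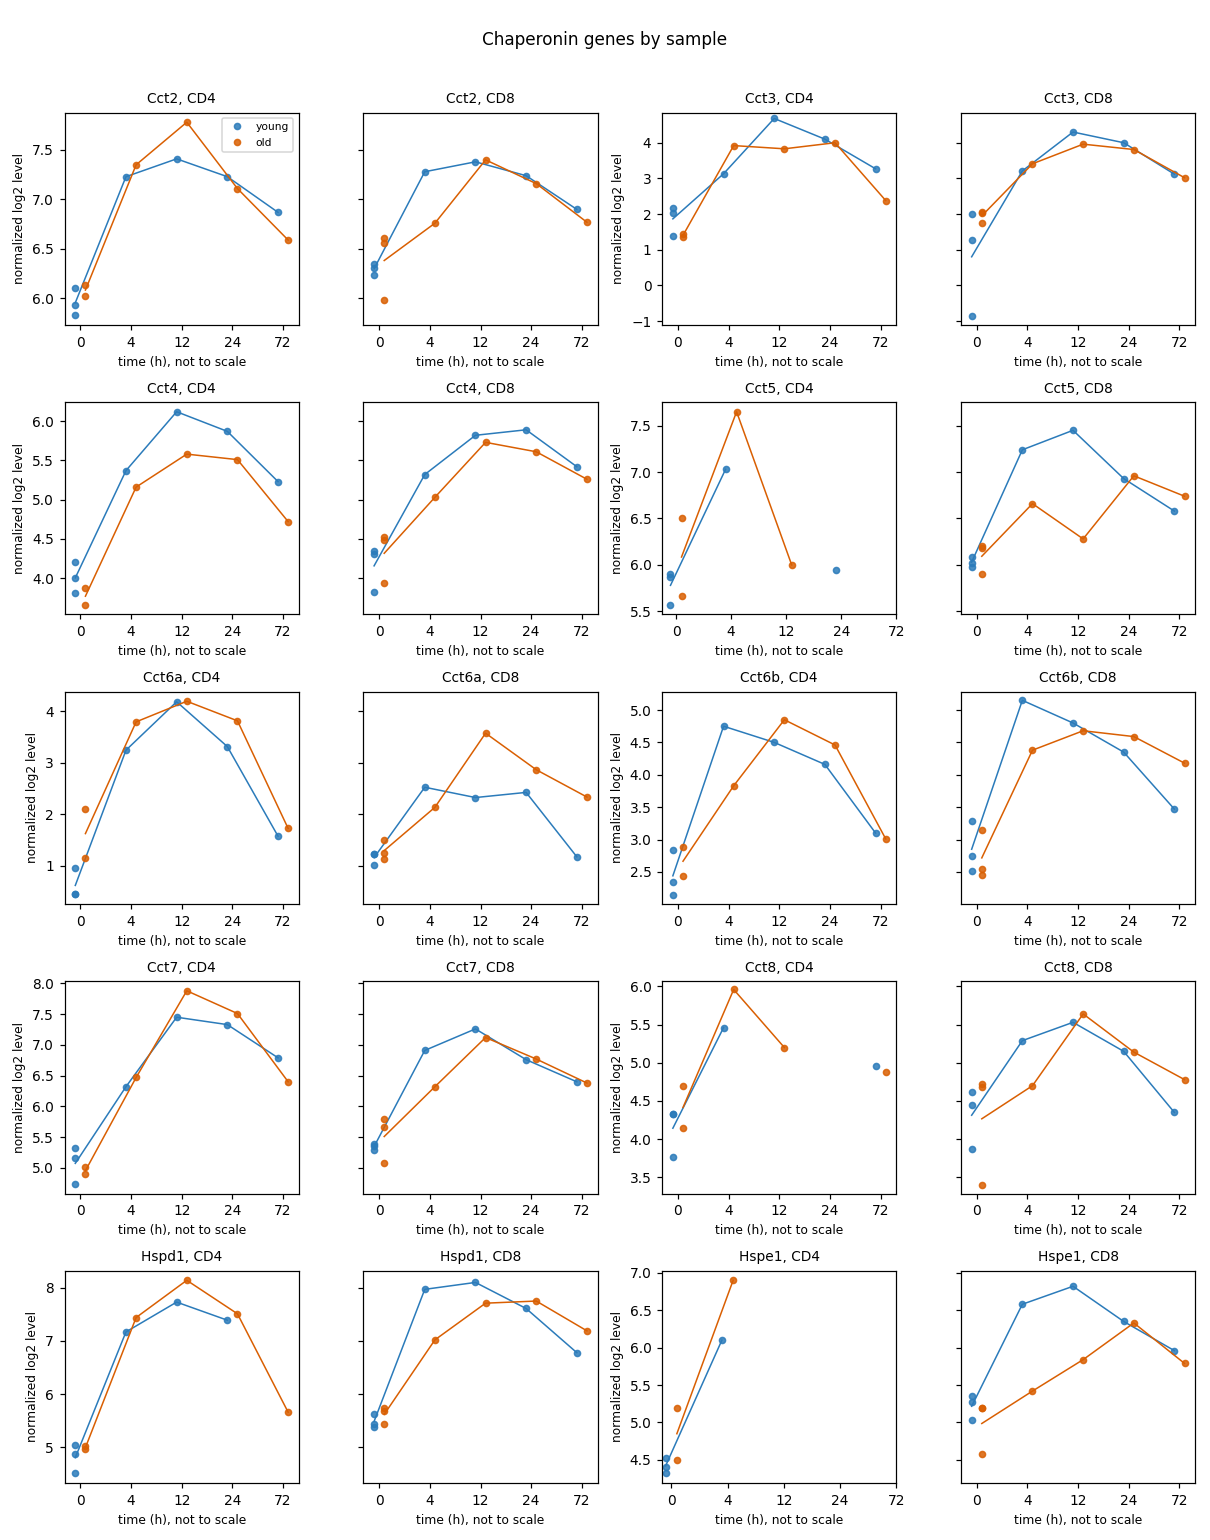
Level (log2 signal minus the 75th percentile of the array) of each Cct gene, Hspd1 and Hspe1 in every sample against time of stimulation (axis not to scale), by cell type and age. Hspd1 in CD4 cells lies between 4.51 and 5.04 at 0 h and between 7.17 and 8.14 at 4 to 24 h.

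Among the Hsp70 and Hsp110 genes, 7 of 12 rose and 2 fell in CD4 cells at 4 h, 6 and 2 of 12 at 12 h, 4 and 2 of 12 at 24 h, and 5 and 2 of 11 at 72 h. In CD8 cells 6 rose and 1 fell at 4 h, and 4 rose and 1 fell at each later time. A random block for the slide left 5 higher and 1 lower in CD4 cells at 4 h and 1 and 0 of 12 in CD8 cells, and later 5 and 2, 4 and 1, and 3 and 2 in CD4 and 4 and 1, 3 and 1, and 3 and 1 in CD8 cells. The stress-inducible Hspa1a was lower than at 0 h at each time in both cell types. In unstimulated cells it stood at 6.7, 6.8 and 5.76 in young and 2.42 and 6.42 in old CD4 cells, and at 5.03, 5.09 and 5.15 in young and 3.83, 3.84 and 5.77 in old CD8 cells. At 4 h it was 2.53 (young) and 3.3 (old) in CD4 and 1.04 and 2.75 in CD8 cells. At 12, 24 and 72 h it was -1.13, -1.21 and -0.37 in young CD4, -0.64, -1.38 and -0.02 in old CD4, -1.94, -1.65 and -0.51 in young CD8 and -1.06, -1.19 and 0.78 in old CD8 cells. From 12 h on all 12 samples lay below every 0 h sample of their cell type, and at 4 h the CD4 ranges overlapped through the 0 h value of 2.42, that of the averaged pair of old CD4 arrays. The difference from 0 h was -2.65 (SE 0.87, 6.3-fold, adjusted p = 0.028) at 4 h and -6.46 (87.8-fold, adjusted p = 1.8e-05), -6.87 (117-fold) and -5.77 (54.5-fold) later in CD4 cells. In CD8 cells the difference was -2.89 (SE 0.85, adjusted p = 0.017), -6.28, -6.21 and -4.65. With the slide as a random block the values at 4 h were -2.7 (adjusted p = 0.17) in CD4 and -2.98 (adjusted p = 0.14) in CD8 cells, and the later ones stayed called. The CD8 call at 4 h was also lost without the young array (-2.1). The CD4 call at 4 h was lost without the young (-1.87) or old array (-3.4) of that time and without old replicate 3 (-2.3) or young replicate 1 (-2.44) or 2 (-2.41) at 0 h. All 4 Hspa1a probes were lower at each time, and they cannot be told from those of its near-identical copy Hspa1b.

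Hspa8 (Hsc70), the constitutive cytosolic form, rose in CD4 cells at 4 h by 1.17 (SE 0.39, adjusted p = 0.033), from 6.97, 7.12 and 7.21 (young) and 6.83 and 7.96 (old) to 7.92 and 8.98. The call was lost without the old (0.9) or young (1.47) array at 4 h, the averaged old pair (0.9) or young replicate 1 (1.17). Its CD8 values lay between -0.3 and 0.16 and did not pass the test. A second Hspa8 probe changed by 1.61, 1.75, 1.94 and 2.08 in CD4 and by 0.48, 1.27, 1.08 and 0.45 in CD8 cells, so the probes of this gene disagree after 4 h. Hspa14, which works at the ribosome with Dnajc2, rose by 0.96, 1.77, 1.62 and 0.91 in CD4 cells and by 1.22 and 1.3 in CD8 cells at 12 and 24 h. With the slide as a random block its CD4 values at 4 and 72 h did not pass (limma adjusted p = 0.098 and 0.094). Dnajc2 itself rose by 1.03, 1.16, 1.51 and 1.32 in CD4 and by 1.25, 1.27 and 1.07 in CD8 cells, with 0.54 at 72 h (adjusted p = 0.27). Its CD8 call at 4 h was lost without the young array (0.97). Under the slide block the CD4 values of Dnajc2 at 4 and 12 h did not pass (limma adjusted p = 0.12 and 0.06). Nor did its CD8 values at 4 and 24 h (adjusted p = 0.08 and 0.12). A second Dnajc2 probe, above background on all 28 arrays, changed by 1.04, 0.56, 0.73 and 0 in CD4 cells. In CD8 cells that probe changed by 0.79, 0.82, 0.81 and 0.35.

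The Hsp110 genes Hspa4, Hspa4l and Hsph1, the nucleotide exchange factors of Hsp70, rose at 4 h in both cell types. None of them was called in CD8 cells at 4 h with the slide as a random block (limma adjusted p = 0.07, 0.12 and 0.14). Hsph1 went from 3.61, 3.86 and 4.43 (young) and 3.9 and 4.68 (old) in CD4 cells at 0 h to 6.28 and 6.11 at 4 h and back to 3.88 and 2.87 at 72 h, and the 72 h values lay within or below the 0 h range. Its rise was 2.08 (SE 0.46, adjusted p = 0.0019) and 1.95 at 4 and 12 h in CD4 cells and 1.5 and 1.85 in CD8 cells, and at 72 h it stood at -0.74 (adjusted p = 0.22) and 0.31 (adjusted p = 0.65). The calls of Hsph1 at 12 h were lost without the old array (1.56 in CD4 and 1.67 in CD8 cells), and that in CD8 cells at 4 h without the young array (0.54). Hspa4l went from 0.19, 0.07 and 0.18 (young) and 0.22 and 0.58 (old) in CD4 cells to 2.52 and 1.92 at 4 h and on to 4.24 and 2.96 at 72 h. Its CD8 levels went from 0.25 to 0.48 at 0 h to 3.01 in young and 1.56 in old cells at 72 h. Its rise at 72 h was 3.39 (SE 0.32, 10.5-fold, adjusted p = 4.4e-07) in CD4 and 1.92 (SE 0.31, adjusted p = 0.00016) in CD8 cells. Hspa4 rose by 2.06, 2.38, 1.98 and 1.24 in CD4 cells and by 1.17, 1.68 and 1.32 in CD8 cells, with 0.71 at 72 h (adjusted p = 0.12). Its CD8 call at 24 h was lost without either array (1.38 and 1.26). With the mean of its probes, 1 of them dim, the CD4 value at 24 h was -0.06.

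The windows of Hspa1a (chr17:34972233-34972280, minus strand), Hsph1 (chr5:149636342-149636389, minus strand) and Dnajb6 (chr5:29735832-29735884, plus strand) hold heat shock type units that begin at -104, -54 and -46 from the start, in capitals below. The run of 3 units of Hsph1 lies after its start and is not shown. The 3 genes had different courses: Hspa1a fell, and Hsph1 rose and by 72 h was back in or below its 0 h range. Dnajb6, a J-domain protein that holds back aggregation, rose in CD4 cells by 1.8 and 1.13 at 12 and 24 h on its brightest probe. Another probe, also above background on all 28 arrays, changed by -0.89, -2.22 and -2.21 in CD4 cells at 12, 24 and 72 h, so the probes of this gene disagree. In CD8 cells the brightest probe was at 0.29 and -0.47 then (limma adjusted p = 0.56 and 0.32) and fell by 1.04 at 72 h (adjusted p = 0.027), a call lost without the young array (-0.61) or young replicate 2 or 3 at 0 h (-0.97 and -0.95).
Hspa1a: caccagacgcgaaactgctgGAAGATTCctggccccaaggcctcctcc
Hsph1: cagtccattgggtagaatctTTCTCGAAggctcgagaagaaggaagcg
Dnajb6: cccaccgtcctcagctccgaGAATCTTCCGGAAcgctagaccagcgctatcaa

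The cytosolic Hsp90 genes rose together. Hsp90ab1, the constitutive form, stood at 6.45, 6.49 and 6.15 (young) and 5.75 and 6.04 (old) in CD4 cells at 0 h, and at 7.7, 7.87, 7.45 and 7.58 (young) and 7.64, 7.73, 6.81 and 7.17 (old) from 4 to 72 h. Its CD8 levels ran from 6.17 to 6.55 at 0 h and from 7.39 to 8.13 afterwards, and neither cell type overlapped. It rose by 1.53 (SE 0.2, adjusted p = 1.7e-05), 1.67, 0.99 and 1.24 in CD4 and by 1.37, 1.64, 1.38 and 1.11 in CD8 cells, and remained called at all 8 combinations with the slide as a random block. Hsp90aa1, the inducible form, rose by 1.68 and 1.62 in CD4 cells at 4 and 12 h, with 0.81 and 0.73 later (adjusted p = 0.063 and 0.1), and by 1.49, 1.58, 1.31 and 1.01 in CD8 cells. Its CD8 call at 4 h was lost without the young array (1.07), and those at 24 h (1.23 and 1.4) and 72 h (0.78 and 1.23) without either. That at 72 h was lost as well without old replicate 1 or 2 or young replicate 2 or 3 at 0 h (0.94 to 0.99). At 12 h its old CD8 spot was an outlier, so n is 1.

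**Figure D3:**
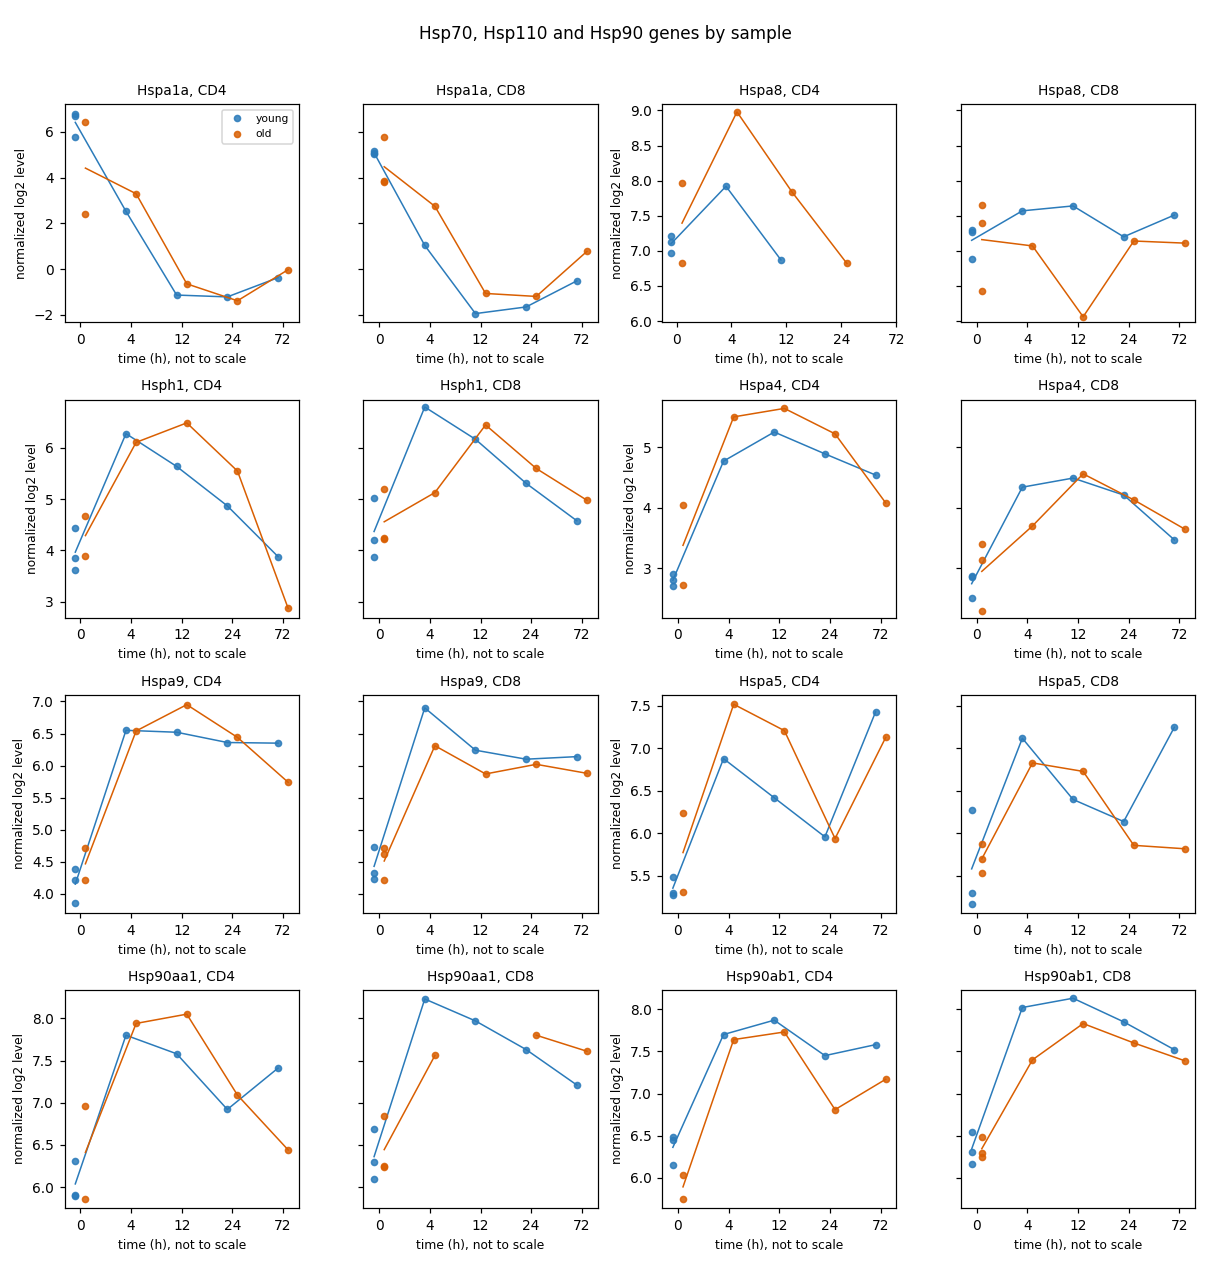
Level (log2 signal minus the 75th percentile of the array) of 8 Hsp70, Hsp110 and Hsp90 genes in every sample against time of stimulation (axis not to scale), by cell type and age. Hspa1a falls from between 2.42 and 6.8 at 0 h to between -1.94 and -0.64 at 12 h, while Hspa9 and Hsp90ab1 sit above their 0 h samples at every later time.

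In the endoplasmic reticulum, Hspa5 (BiP), the main Hsp70, was high at both ends of the course in CD4 cells. Its CD4 levels were 5.3, 5.28 and 5.49 (young) and 5.31 and 6.24 (old) at 0 h, 6.88 and 7.52 at 4 h, 5.96 and 5.94 at 24 h, and 7.43 and 7.13 at 72 h, so the 24 h values lay inside the 0 h range and the others above it. It rose by 1.64 (SE 0.36, adjusted p = 0.0019), 1.26 and 1.72 at 4, 12 and 72 h in CD4 cells, with 0.4 at 24 h (adjusted p = 0.41). It rose by 1.33 (adjusted p = 0.0083) at 4 h in CD8 cells. The later CD8 values were 0.93, 0.36 and 0.89 (adjusted p = 0.056, 0.49 and 0.068). The CD4 calls of Hspa5 were lost without the old array at 4 h (1.47) and 12 h (1) and the young array at 72 h (1.34), and the CD8 call without either array (1.39 and 1.27) and with the slide as a random block (1.27, adjusted p = 0.093). Hsp90b1 (Grp94) rose by 1.11 in CD4 cells at 4 h (adjusted p = 0.0046) and by 0.99, 0.92 and 1.32 in CD8 cells from 12 h. Without the young array its CD4 value was 0.97, and without the old array its CD8 values were 0.82 at 12 h and 0.58 at 24 h, and none of these passed. Its CD4 value with the slide as a random block was 1.09 (adjusted p = 0.054). A second Hsp90b1 probe, above background on all 28 arrays, changed by 0.28, 1.11, 0.55 and 1.46 in CD4 cells. In CD8 cells that probe changed by 0.41, 0.9, 0.69 and 1.16. Dnajb11, a J-domain partner of Hspa5, rose by 1.14, 1.99, 1.11 and 1.18 in CD4 and by 0.82 and 1.28 at 4 and 12 h in CD8 cells. Its CD8 value at 4 h did not pass with the slide as a random block (limma adjusted p = 0.2).

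Other partners of Hspa5 were lower at some times. Dnajc3, which also inhibits the kinase PERK, fell at 4 h from 2.96, 2.72 and 2.03 (young) and 2.72 and 2.43 (old) to 1.24 and 1.56 in CD4 cells and from between 2.39 and 3.46 to 1.28 and 1.32 in CD8 cells, without overlap. The difference was -1.17 (SE 0.32, limma adjusted p = 0.011) and -1.61 (SE 0.32, adjusted p = 0.0013). Young CD8 replicate 2 gave no value at 0 h. Without the young array the CD4 difference was -0.95 and did not pass, nor did it with the slide as a random block (-1.14, adjusted p = 0.058). At 12 h the levels were 3.3 and 3.32 in CD4 and 2.33 and 2.77 in CD8 cells, and the difference from 0 h did not pass (adjusted p = 0.081 and 0.44). Dnajb9, a J-domain protein of the reticulum lumen, stood in CD8 cells at -2.27 at 24 h (SE 0.6, adjusted p = 0.0068) and -1.79 at 72 h (adjusted p = 0.033) against 0 h, where its levels ranged from 0.55 to 3.06. With the CD8 times as in the deposited value table the 24 h value was 0.09. Its call was lost without the young array at 24 h (-2.05), and at 72 h without either array (-1.64 and -1.93) or old replicate 3 at 0 h (-1.6). Of the 8 members of the reticulum, 3 rose and 1 fell in CD4 cells at 4 h and 4 of 7 rose at 72 h, and 2 rose and 1 fell in CD8 cells at 4 h.

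The windows of Hspa5, Hsp90b1 and Dnajc3 are the only ones of the 76 with the full endoplasmic reticulum stress element, CCAAT and CCACG with 9 letters between, on either strand (3.95%; 0.119% of all windows). They are shown since these genes differ at 4 h: Hspa5 and Hsp90b1 rose in CD4 cells while Dnajc3 fell, the last 2 calls being lost with the slide as a random block (adjusted p = 0.054 and 0.058). The rise of Hsp90b1 there is that of its brightest probe, and the second changed by 0.28. The elements, in capitals, begin at -65 from the start of Hspa5 (chr2:34772005-34772063, plus strand), at -212 and -107 from that of Hsp90b1 (chr10:86705513-86705676, minus strand) and at -105 from that of Dnajc3 (chr14:118937807-118937865, plus strand).
Hspa5: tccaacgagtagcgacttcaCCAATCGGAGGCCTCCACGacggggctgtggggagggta
Hsp90b1: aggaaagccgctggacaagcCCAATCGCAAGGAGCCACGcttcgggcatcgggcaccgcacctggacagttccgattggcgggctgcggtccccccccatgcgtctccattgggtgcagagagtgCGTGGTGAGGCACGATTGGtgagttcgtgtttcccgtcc
Dnajc3: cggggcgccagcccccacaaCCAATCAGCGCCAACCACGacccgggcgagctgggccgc

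The Dnaj genes showed no shared course. Of 36 genes, 9 rose and 5 fell in CD4 cells at 4 h, 14 and 1 of 35 at 12 h, 13 and 2 of 34 at 24 h, and 10 and 7 of 35 at 72 h. In CD8 cells 7 and 4, 9 and 2, 6 and 3, and 4 and 5 of 36 did. Under the slide block 4 rose and 1 fell, 7 and 1, 9 and 1, and 7 and 3 in CD4 cells, and 2 and 3, 4 and 2, 1 and 3, and 1 and 2 in CD8 cells. Of all genes 17%, 24.8%, 29.2% and 22.6% were called under that block in CD4 cells. In CD8 cells the shares were 13.2%, 19.6%, 18.6% and 13.6%. Most of these Dnaj counts lie near or below those shares, so they are not read as particular to the Dnaj genes. Their median change was 0.3, 0.65, 0.46 and 0.08 in CD4 and 0.19, 0.11, 0.03 and -0.23 in CD8 cells. Dnaja1 and Dnaja2, the main cytosolic partners of Hspa8, rose in CD4 cells at 4 h by 1.21 and 1.37 and at 12 h by 0.91 and 0.72. In CD8 cells only Dnaja2 at 4 h, at 1.09, passed the test. Another Dnaja1 probe changed by -2.24 at 12 h, and with the mean of the probes the CD4 value there was -0.06. Dnajb1 (Hsp40), the stress-inducible partner of Hspa1a, rose in CD4 cells at 12 h by 1.08 (SE 0.3, adjusted p = 0.0076), and its other values, from -0.78 to 0.47, did not pass. Without the old array that call was lost (0.73), as were those of Dnaja1 at 4 h without either array (1.29 and 1.13) and at 12 h without the old array (0.52), the averaged old pair (0.87) or young replicate 1 or 2 (0.81 and 0.8). A second Dnajb1 probe, above background on all 28 arrays, changed by -1.03, -0.53, -0.17 and -0.31 in CD4 cells. In CD8 cells that probe changed by -1.16, -0.86, -1.07 and -1.25, so the probes of this gene disagree.

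Several single Dnaj genes stood out by size or by steadiness. Dnajc18, of unsettled role, went in CD4 cells from 0.9, 0.97 and 0.56 (young) and 1.03 and 0.73 (old) at 0 h to 2.84, 2.87 and 2.98 (young) and 3.16, 2.47 and 3.67 (old) at 12, 24 and 72 h, with no overlap. It rose by 2.16, 1.83 and 2.48 there and by 1.24, 1.31 and 1.81 in CD8 cells, and its 4 h values were 0.25 and 0.41 (adjusted p = 0.52 and 0.25). Dnajc11, of the mitochondrial contact sites, rose in CD8 cells by 1.19, 1.14, 1.05 and 1.06 and in CD4 cells by 1.11 at 4 h and 0.65 at 24 h. With the slide as a random block its CD8 values at 24 and 72 h did not pass (limma adjusted p = 0.056 and 0.066). Nor did its CD4 value at 24 h (adjusted p = 0.19). A second, dim Dnajc11 probe, above background on 15 of 28 arrays, changed by 0.42, -0.07, 0.5 and -0.04 in CD8 cells. Dnajc9, a histone chaperone, fell at 4 h by 0.73 in CD4 (adjusted p = 0.018) and by 0.94 in CD8 cells (adjusted p = 0.0033), and rose at 24 h in CD4 cells by 1.03. With the CD8 times as in the deposited value table the CD8 value at 4 h was 0.11. Its CD4 call at 4 h was lost without either array (-0.72 and -0.74), and its CD8 call without the old array (-0.78). Dnajc17 fell in CD4 cells at 72 h, by 1.99 (SE 0.25, adjusted p = 1e-05), from between -0.52 and 0.63 to -1.02 in young and -2.74 in old cells. A second Dnajc17 probe, above background on all 28 arrays, changed by -0.3 there.

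Dnajc6 (auxilin), which uncoats clathrin vesicles with Hspa8, fell in both cell types. In CD4 cells it went from -0.72, -0.95 and -0.93 (young) and -1.07 and -0.49 (old) to -3.24, -4.24, -4.41 and -3.98 (young) and -3.55, -4.84, -2.94 and -3.91 (old), with no overlap. The differences were -2.58 (SE 0.47, adjusted p = 0.00038), -3.72, -2.86 and -3.13. At 72 h its probe was not well above background, which gives at least 8.34-fold. Such a bound compares the brighter mean with the lowest signal well above background on the dim arrays. In CD8 cells it was not well above background at any time after stimulation and was lower at least 2.91-fold, 2.25-fold, 3.05-fold and 1.69-fold. Its CD8 value at 72 h turned to 0.57 with normexp background correction.

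Of the small heat shock genes, which hold unfolded chains without ATP, none was called in CD4 cells at 4 h and 2, 1 and 2 of 5 were higher later, and in CD8 cells 1 of 5 was lower at each time. The 4 besides Hspb9 were above background on 4 to 24 arrays only, so no count over them is read. Hspb1 (Hsp25) fell in CD8 cells by 1.51 at 24 h (adjusted p = 0.022) and by 1.36 at 72 h (adjusted p = 0.044), the latter turning to 0.42 with normexp background correction. Both calls were lost without either array of their time (-1.65 and -1.38 at 24 h, -1.37 and -1.36 at 72 h), and that at 72 h without any 0 h array but young replicates 2 and 3 (-1.34 to -1.27). Hspb6 was at 1.24 in old CD4 cells at 12 h and between -7.8 and -3.46 on all other arrays of CD4 cells. Its call there (3.07, adjusted p = 0.045) rests on that array, without which the value was -0.55. Hspa12a, an atypical Hsp70 also above background on few arrays, was lower in CD4 cells at least 3.7-fold at 4 h, and its later CD4 values turned positive (0.38, 0.38 and 0.64) with normexp.

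More of the chaperones' partners outside the name rule rose than fell. Of 36 co-chaperones and chaperones listed apart, 21 rose and 0 fell in CD4 cells at 4 h, 25 and 0 of 35 at 12 h, 21 and 1 of 35 at 24 h, and 10 and 2 of 33 at 72 h (limma; median 0.93, 1.38, 1.15 and 0.52). In CD8 cells 12 and 1, 23 and 2, 18 and 2, and 9 and 2 of 36 did. The slide block left 10 higher and 0 lower, 20 and 0, 18 and 1, and 7 and 1 in CD4 cells, and 7 and 0, 19 and 1, 11 and 1, and 4 and 0 in CD8 cells. The counts at 72 h lie near the shares of all genes called under that block (22.6% and 13.6%). Stip1 (Hop), which hands clients from Hsp70 to Hsp90, rose by 2.03, 2.7, 2.95 and 1.43 in CD4 and by 1.8, 2.12, 1.78 and 0.86 in CD8 cells. The Hsp90-bound immunophilin Fkbp4 rose by up to 3.25 (24 h) in CD4 and 2.69 (12 h) in CD8 cells, and Ahsa1, which speeds the Hsp90 cycle, by up to 1.86 and 1.51 at 12 h. Bag2, a nucleotide exchange factor, rose by 1.89, 4.02, 4.69 and 4.62 in CD4 cells. Pfdn5, a subunit of prefoldin that feeds the CCT ring, fell by 0.92 in CD4 cells at 24 h and by 0.72, 0.98 and 0.82 in CD8 cells from 12 h. Of 17 other folding genes of the endoplasmic reticulum, 6 rose and 1 fell in CD4 cells at 4 h and 8 of 15 rose at 72 h. In CD8 cells 4 rose and 1 fell at 4 h and 9 rose and 1 fell at 72 h. Of all genes 14.6% and 13.9% rose at 4 h in CD4 and CD8 cells, and 20.7% and 13.2% at 72 h. At 4 h 3 of these 17 genes rose in CD4 and 0 in CD8 cells under the slide block, with 17% and 13.2% of all genes called. At 72 h 7 of 15 rose in CD4 cells, and 6 rose and 1 fell in CD8 cells under it (22.6% and 13.6%). Hyou1, the large Hsp70 of that compartment, was higher at all 8 combinations.

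Among 13 regulators of the stress responses, 4 rose and 2 fell in CD4 cells at 4 h and 6 rose and 2 fell at 72 h. In CD8 cells 4 rose and 0 fell at 4 h and 6 rose and 2 fell at 72 h. Of all genes 14.6% rose and 15.4% fell in CD4 cells at 4 h, and 20.7% and 16.1% at 72 h. The CD8 shares were 13.9% and 12.6% at 4 h and 13.2% and 13.9% at 72 h, so the falls were near or below background. Neither these regulators nor the apoptosis genes below were counted under the slide block. Hsf1, the main heat shock factor, was lower in CD4 cells from 12 h (-1.42, -2.31 and -1.42) and in CD8 cells between -0.2 and 0.42 with no call. Hsf2, a second factor, rose by 2.64, 3.59 and 2.67 in CD4 cells from 12 h and by 1.08 in CD8 cells at 12 h. These CD4 values come from the dimmer, noisier arrays, read on another scanner than the CD8 arrays. No difference between the cell types is therefore read for Hsf1 or Hsf2. Xbp1, a transcription factor of the unfolded protein response, rose at each time, by 1.47 to 3.14 in CD4 and by 1.95 to 3.53 in CD8 cells. Atf5, of the mitochondrial response, rose by 5.77 in CD4 and 4.17 in CD8 cells at 72 h, and Ddit3 (Chop), a stress-induced factor, by 3.21 and 1.69 at that time. Of 7 genes of apoptosis and stress damage, 4 rose in CD4 cells and 2 rose and 1 fell in CD8 cells at 72 h, beside these values.

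Between unstimulated CD8 and CD4 cells, 6 of 67 heat shock and chaperonin genes were higher and 5 lower in CD8 cells (limma, n = 6 against 5; 6.42% and 3.61% of all genes). Dnajc15 was 3.53, 3.62 and 3.35 in young and 3.38 and 3.88 in old CD4 cells, and 5.03, 4.7 and 4.55 in young and 4.59, 4.6 and 4.76 in old CD8 cells, so every CD8 sample lay above every CD4 sample (difference 1.14, SE 0.15, 2.2-fold, adjusted p = 0.0023). Hspd1 was higher in CD8 cells by 0.65 (SE 0.14, 1.57-fold, adjusted p = 0.025) and Dnaja4, a J-domain protein of cytosol and membranes, by 0.82 (adjusted p = 0.02), the latter with overlapping samples. Dnajc6 ran from -1.07 to -0.49 in CD4 and from -4.1 to -2.64 in CD8 cells (difference -2.73, SE 0.23, 6.65-fold, adjusted p = 0.00016). Dnajc12 and Dnajb2 were lower by 0.59 and 0.48 in CD8 cells, and the other 5 calls (Dnajb13, Dnajb8, Dnajc5g, Hspa12a and Dnajb3) are of genes above background on 3 to 19 arrays. The cell types lie on different slides: with the slide as a random block only Dnajc6 was called (-2.65, SE 0.37, adjusted p = 0.012; 1.12% of all genes). The calls of Hspd1 (0.62 to 0.67), Dnaja4 (0.73 to 0.81), Dnajc12 (-0.64 to -0.46) and Dnajb2 (-0.5 to -0.44) were each lost without any of at least 5 single samples. The count was 17 without the averaged old CD4 pair, and 7 without old CD8 replicate 1 or 2 or young CD8 replicate 2 or 3, and with normexp 81.8% rather than 54.5% of the calls were higher in CD8 cells.

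The difference between the cell types in their response was called for few genes. By 4 and 12 h no gene of 67 and 65 differed in its change (limma; 7 and 18 at an unadjusted p under 0.05; 0.0561% and 0.896% of all genes called). By 24 h 1 of 62 did (3.45% of all genes) and by 72 h 7 of 62, 2 with a higher and 5 with a lower change in CD8 cells (2.84% and 4.22%). By 72 h Dnaja4 had fallen in CD8 cells, from -0.07, 0.33 and 0.18 to -1.35 in young and from 1.24, 1.19 and 0.89 to -0.24 in old cells, while its CD4 values were -0.11, -0.38 and -0.77 (young) and 0.22 and -0.16 (old) at 0 h and -0.44 and 1.13 at 72 h (CD8 minus CD4 change -1.93, SE 0.35, adjusted p = 0.0044). Dnajc17 differed the other way by 1.57 (SE 0.35, adjusted p = 0.015), but its second probe changed by -0.7 in CD8 and by -0.3 in CD4 cells, which turns the direction. Dnajc1, a J-domain protein of the reticulum membrane, differed by -1.9 (SE 0.44, adjusted p = 0.016). The calls of Dnajc17 and Dnajc1 were lost without the old CD4 (1.14 and -1.54) or old CD8 array (1.16 and -1.43) at 72 h. All stimulated CD4 arrays, and of the 0 h arrays only the CD4 replicate 3 pair, came from the other scanner, so the scanner moves with cell type in these differences. With the 0 h arrays of the same scanner only, 0, 0, 3 and 6 genes were called by 4, 12, 24 and 72 h. None was called with the slide as a random block. The 72 h count was 4 without the old CD4 array and 2 without the old CD8 array at 72 h. By 24 h it was 0 without the old CD4, old CD8 or young CD8 array of that time and 2 without old CD4 replicate 3, old CD8 replicate 3 or the young CD4 array at 24 h. By 12 h it was 1 without old CD4 replicate 3 and 2 without the young CD4 array at 12 h. With the CD8 times as in the deposited value table, 1, 9 and 15 genes differed by 4, 12 and 24 h. None of the chaperonin, Hsp60, Hsp10 or Hsp90 genes was among those called with the scanner labels.

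No difference between old and young unstimulated cells passed the test for any of the 67 genes. In CD4 cells (old minus young, n = 2 against 3) 0 were called and 7 had an unadjusted p under 0.05 (limma; 0.326% of all genes called, 3120 at an unadjusted p under 0.05), and in CD8 cells (n = 3 against 3) 0 and 5 (1.58%; 2081). The difference of the age effect between cell types was called for 0 (0.0255% of all genes), with 6 at an unadjusted p under 0.05. In CD4 cells the smallest p belonged to Dnajc17 (-0.79, SE 0.21, adjusted p = 0.16) and Cct6a (1.01, SE 0.3, adjusted p = 0.19). In CD8 cells they belonged to Dnaja4, at 1.24, 1.19 and 0.89 in old and -0.07, 0.33 and 0.18 in young cells (difference 0.96, SE 0.23, adjusted p = 0.095), and to the dim Dnajc5g (-1.52, adjusted p = 0.099). Hspa1a was at -2 (SE 1.03, adjusted p = 0.38) in CD4 and -0.61 (SE 0.93, adjusted p = 0.93) in CD8 cells, with 3.83 and 3.84 on one slide and 5.77 on another in old CD8 cells.

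The slide is part of that spread, since both ages share slides at 0 h. Within slides the old minus young difference of Hspa1a was 0.66 on one and -4.33 on the other CD4 slide, and 0.74 and -1.28 on the CD8 slides, so its direction was not the same on both. Dnaja4 was higher in old cells on each slide, by 0.61 and 0.47 in CD4 and by 0.96 and 0.96 in CD8 cells. With the slide as a block, Dnaja4 (0.96, limma adjusted p = 0.0058) and Dnajc5g (-1.52) were called in CD8 cells (6.51% of all genes), and Cct6a (0.9), Dnaja1 (0.63), Dnajc14 (-0.56) and Dnajc17 (-0.73) in CD4 cells (11%). The median over the 67 genes was 0.4 and -0.14 on the CD4 slides and -0.19 and 0 on the CD8 slides, and that of all genes between -0.06 and 0. Without the averaged old CD4 pair 4 genes were called in CD4 cells and 2 for the difference between cell types, and old CD4 cells then have 1 sample, assumed to vary like the other groups.

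In stimulated cells no gene passed the test for age over the 4 times either (0 in each cell type; 5 in CD4 and 6 in CD8 cells at an unadjusted p under 0.05; 0.112% and 0.413% of all genes called). Dnaja4 did not pass it. In CD8 cells it stood at 0.44, 0.69, -0.04 and -0.24 in old against -0.42, -0.67, -1.02 and -1.35 in young cells at 4 to 72 h, without overlap (difference 1.08, SE 0.26, limma adjusted p = 0.18). In CD4 cells the difference was 0.88 (adjusted p = 0.34). Hspa1a was 1.09 higher in old CD8 cells (adjusted p = 0.22).

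At single times there is 1 array per age, and these differences are given with no test. In CD8 cells at 4 h, labelled 24 h in the deposited value table, 51 of 67 genes were lower in old than in young cells, with a median of -0.39, against a median of -0.07 and 10924 of 19608 genes over the whole array; 4 were lower and 3 higher by over 2-fold (4.51% and 7.53% of all genes). By family, 7 of 8 Cct genes were lower (median -0.55), both Hspd1 and Hspe1 (-1.05), 3 of 3 Hsp90 genes (-0.68), 9 of 12 Hsp70 and Hsp110 genes (-0.28) and 27 of 36 Dnaj genes (-0.32). At 12, 24 and 72 h 29 of 66, 27 of 67 and 35 of 66 were lower in old CD8 cells, with medians of 0.05, 0.05 and -0.02. In CD4 cells 33 of 67, 18 of 60, 20 of 59 and 39 of 59 were lower at 4, 12, 24 and 72 h, with medians of 0.03, 0.34, 0.18 and -0.16 against -0.24, 0.29, 0.15 and 0.01 over all genes.

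**Figure D4:**
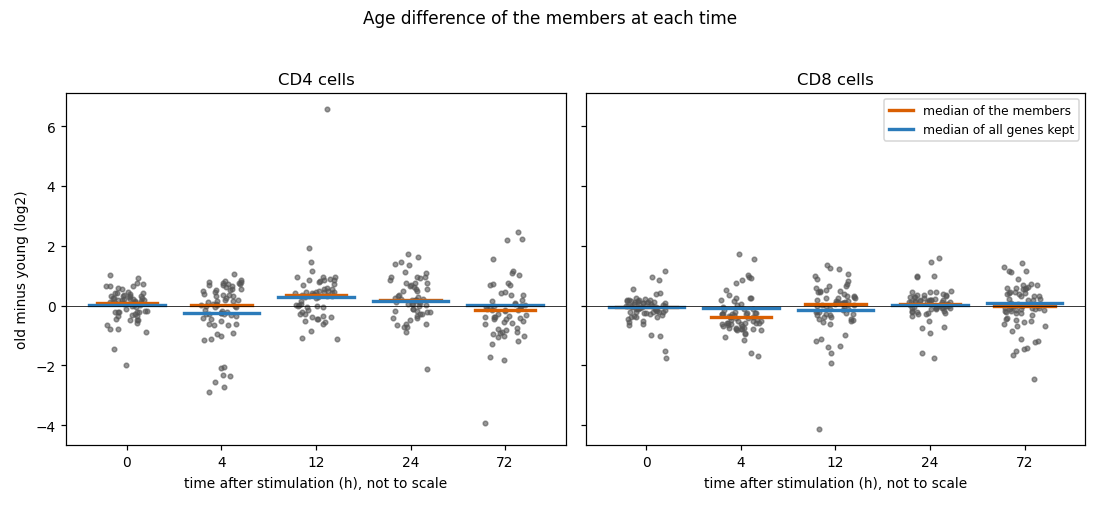
Old minus young log2 level of each heat shock and chaperonin gene (grey points) at each time in CD4 and CD8 cells, with the median of these genes (orange) and of all genes (blue); 1 array per age at 4 to 72 h. The orange median is at -0.39 in CD8 cells at 4 h, where 51 of 67 genes lie below 0, and between -0.16 and 0.34 elsewhere after stimulation.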

How the data were processed

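The deposited scanner files hold Agilent Feature Extraction output (versions 9.5.1.1 on 10 and 10.1.1.1 on 18 arrays, per the file headers), with processed green intensity per spot, background-subtracted by that software. The deposited value table is on a log2 scale and was used as an alternative only; its centring is not given in the sources used here. Signals were taken as log2 intensity minus the array's 75th percentile of it; outlier and control spots were left out, repeat spots averaged, and the brightest probe kept for each gene if well above background on at least 3 arrays. limma 3.58.1 (R 4.3.3) fitted all 19612 genes, and p-values were adjusted over them by Benjamini-Hochberg (threshold 0.05). Separate fits were made of the 0 h samples, of the stimulated samples, and of all samples (a mean for every time within each cell type, plus 1 age term for CD4 and 1 for CD8). The design listed 12 arrays at 0 h; after the duplicate pair was averaged, 11 samples were used. Every stated p is two-sided. The tests were checked on simulated data. A log2 change of 1 planted in 100 genes was called in 1 to 12% of them, by comparison, and a change of 2 in 31 to 65%. For a change of 1 the share was 1% for age in CD8 cells at 0 h. It was 2% for age in stimulated CD4 cells and 4% for the response by 72 h. A gene that was not called can therefore not be taken as unchanged.

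Named in the text are Hspa1a, Hspa1b, Hspa5, Hspa8, Hspa9, Hsp90aa1, Hsp90ab1, Hsp90b1, Hsph1, Hspd1, Hspe1, Dnaja1, Dnajb1 and Cct2 to Cct8, plus up to 10 genes past the threshold with the largest log2 difference in each direction and comparison; genes named without a call, and genes outside the name rule, were chosen after their values were seen. The members and lists were chosen with earlier results of these data known. Gene names are those of the files, matched to RefSeq by accession for 22951 probes, by symbol for 6659 and by synonym for 3109, with 8455 unmatched. Same-numbered old and young CD4 arrays at 0 h shared a slide and deviated together (correlations 0.57, 0.58 and 0.62). Of the CD8 arrays only the replicate 2 pair shared a slide (0.38), and the other pairs lay on different slides (-0.44 and -0.6). The main fits used no pairing, which entered only in the alternatives with the replicate number or the slide as a block. Where no mean signal column was found, normexp (offset 50) used median signals. Alternatives tried were median scaling, quantile normalization, normexp, filters, probe means, weights, blocks, and leaving out each sample. Precision is limited by the number of arrays. No values of other samples were present (0 columns).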

Additional observations from a re-analysis of the deposited data

Results flagged for a closer look

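The change from 0 h differed between CD8 and CD4 cells, by the test of the difference itself, for 8 genes (limma; CD8 minus CD4 change). By 24 h this was Dnajb13, a dim testis-type J-domain gene, at -3.2 (SE 0.75, adjusted p = 0.032). By 72 h the difference was -1.93 for Dnaja4 (SE 0.35, adjusted p = 0.0044), -1.06 for Dnajb12 (SE 0.31, adjusted p = 0.044), -1.9 for Dnajc1 (SE 0.44, adjusted p = 0.016) and 1.57 for Dnajc17 (SE 0.35, adjusted p = 0.015). A second Dnajc17 probe changed by -0.7 in CD8 and by -0.3 in CD4 cells at 72 h, the other direction. It was 4.73 for Hspa12a (SE 0.72, adjusted p = 0.0015), -2.59 for Hspb2 (SE 0.71, adjusted p = 0.037) and -2.63 for Hspb7 (SE 0.65, adjusted p = 0.022), which were well above background on 7, 15 and 17 of 28 arrays. With the slide as a random block none of the 8 passed the test, and slide and cell type cannot be told apart in them. With the 0 h arrays of the same scanner only, Hspb2 (-2.05) and Hspb7 (-2.09) no longer passed and the others did. The call of Dnajb12 was lost on leaving out most of the single samples (-1.12 to -0.91). Leaving out some of them lost those of Dnajb13 (-3.47 to -2.64), Hspb2 (-2.64 to -1.79) and Hspb7 (-2.66 to -2.43). The same held for Dnajc1 (-1.54 and -1.43) and Dnajc17 (1.14 and 1.16), but not for Dnaja4 and Hspa12a.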

How the results depend on the processing

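Of 192 results for single named genes, 76 stayed past the threshold under each of up to 29 settings, and 15 turned over. With normexp background correction these were Hspa12a in CD4 cells at 12, 24 and 72 h (0.38, 0.38 and 0.64), Dnajb3 in CD4 cells at 72 h (0.39), and Hspb1 (0.42), Dnajb13 (0.92) and Dnajc6 (0.57) in CD8 cells at 72 h. With the mean of a gene's probes they were Dnaja1 in CD4 cells at 12 h (-0.06), Hspa4 in CD4 cells at 24 h (-0.06), Dnajc16 in CD4 cells at 72 h (0.5) and Cct3 in CD8 cells at 24 and 72 h (-0.09 and -0.61). Hspb6 in CD4 cells at 12 h was -0.55 without the old and 6.92 without the young array. With the CD8 times of the deposited value table Dnajc9 in CD8 cells at 4 h was 0.11 and Dnajb9 at 24 h was 0.09.

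Counts of genes called moved by over 1.5 times as follows; the cause was not tested. With the slide as a block, age in CD4 and CD8 cells at 0 h gave 4 and 2, CD8 against CD4 gave 1, CD4 at 4 and 72 h gave 22 and 19, CD8 at 4, 24 and 72 h gave 13, 17 and 12, and the response difference gave 0 by 24 h and 0 by 72 h. With array weights, age in CD8 cells gave 8 at 0 h and 5 after stimulation, CD8 at 24 h gave 45, and the response difference gave 7 by 24 h and 4 by 72 h. Median scaling gave 7 for CD8 against CD4, 17 for CD4 at 72 h, 14 for CD8 at 4 h, and 0 and 3 for the response by 24 and 72 h. Quantile normalization gave 2, 2 and 11 for the response by 12, 24 and 72 h. Genes above background on all arrays gave 1 for age in CD8 cells, 7 for CD8 against CD4, and 2 and 2 for the response by 12 and 24 h. Normexp gave 1 for age in CD8 cells and 0 for the response by 24 h. The mean of the probes gave 5 for CD8 against CD4 and 0 and 3 for the response by 24 and 72 h. For the response, the value table's times gave 1, 9 and 15 by 4, 12 and 24 h, keeping outlier spots gave 1 and 0 by 12 and 24 h, counting all 12 arrays gave 2 and 2, no filter gave 0 by 24 h, and the same scanner at 0 h gave 3 by 24 h. Averaging arrays of a group on a slide gave 2 for CD8 against CD4 and 0 and 2 for the response by 24 and 72 h.

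Leaving out 1 sample gave 0 to 4 for age in CD4 cells, 0 to 2 for the difference in age effect, 7 to 17 for CD8 against CD4, 20 to 34, 24 to 37, 20 to 30 and 20 to 29 for CD4 cells at 4, 12, 24 and 72 h, 8 to 29, 18 to 30, 15 to 28 and 13 to 23 for CD8 cells, and 0 to 2, 0 to 2 and 2 to 8 for the response by 12, 24 and 72 h. The replicate number as a block, which pairs the CD4 samples, gave 10 rather than 11 calls between CD8 and CD4 cells and 0 for age, and changed no other call. Other scalings moved the median of all genes by over 0.1: with median scaling it was 0.06 rather than -0.12 in CD4 cells at 4 h and 0.28 rather than -0.1 in CD8 cells at 24 h, and with normexp 0.65 rather than 0.17 in CD4 and 0.47 rather than 0.01 in CD8 cells at 72 h. Signals near background limit the 14 genes above it on fewer than all arrays.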
